A study of Homo sapiens with 24 samples.

Results

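The m6A peaks of 10 transcripts of the Notch pathway were described across 6 human cell populations. The transcripts were those of the receptors NOTCH1, NOTCH2 and NOTCH3, the ligands DLL1, JAG1 and JAG2, the nuclear proteins RBPJ and MAML1, and the target genes HES1 and HEY1. A peak was counted for a member when its gene annotation held the Ensembl identifier of that member. This gave 195 of 228472 peaks in the 6 lists, and 10 of 27200 genes that carried a peak in any list.

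In m6A-seq, fragmented RNA is pulled down with an antibody to N6-methyladenosine (m6A). The pulled-down RNA (IP) and the starting RNA (input) are sequenced, and a peak is a stretch where IP reads exceed what the input predicts. All cells came from the MEL1 human embryonic stem cell line, which the study's methods give as MEL1 INS GFP/W, a reporter line with GFP at an allele of the insulin gene. The first batch held 4 stages of differentiation, namely the undifferentiated cells (hPSC), their definitive endoderm derivatives (DE), progenitors of the pancreas (PP) and islet-like organoids (hILO), processed as mRNA with a SYSY antibody. Wild-type PP (WT PP) and PP lacking the m6A demethylase ALKBH5 (A5-KO PP) made up a second batch, for which total RNA, a Millipore antibody and another library kit were used, with rRNA removed from the input. The knockout cells descended from colonies picked after CRISPR-Cpf1 cutting with a pair of guides to the first exon of ALKBH5. The hILO medium held 0.1 µM compound E, a gamma-secretase inhibitor and so a blocker of Notch receptor cleavage, from day 15 to day 22. There were 24 libraries, 2 IP and 2 input for each population, but only 1 list of peaks per population was analysed here. No value per library was at hand, so every comparison between populations is without a replicate check and without a test. A peak can be called only on RNA that is present, and a change in the amount of an RNA cannot be told apart here from a change in its methylation.

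Notch signalling passes between touching cells. A DLL or JAG ligand on a cell binds a NOTCH receptor on its neighbour, which is then cut by ADAM proteases and by gamma-secretase. The freed intracellular domain enters the nucleus, joins the DNA-binding protein RBPJ and the co-activator MAML1, and turns on repressors of the HES and HEY families. In the pancreas, Notch activity is known to hold progenitors undifferentiated through HES1, which represses the endocrine regulator NEUROG3. m6A is mostly set in the sequence DRACH, in which the D stands for any base but C, the R for a purine and the H for any base but G, often with GGAC at its core, and is known to lie around stop codons and in long exons.

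The windows below show, for 7 members, a motif from a recurrent location, the one nearest the middle of the bases that most lists shared there, since the peaks recurred around these sites. For DLL1 these were 50 nt common to 4 of the 5 lists with a peak at that location, and its 3UTR location, found in the same 5 lists, is not shown. They were read from GRCh38 (hg38) on the transcript strand, 5′ to 3′. The chosen GGAC motif, or a DRACH motif where the stretch held no GGAC, is in capitals. Other motifs in a window are in lower case, such as the GGAC at the end of the JAG1 window. The site of NOTCH1 (chr9:136497123-136497152, minus strand, CDS in exon 34) was coding. The sites of DLL1 (chr6:170283280-170283308, minus, CDS in exon 9) and JAG1 (chr20:10639552-10639581, minus, CDS in exon 26) were coding too, the latter 65 nt before the end of the CDS. Those of NOTCH2 (chr1:119914967-119914996, minus, exon 34), JAG2 (chr14:105142555-105142583, minus, exon 26), RBPJ (chr4:26431012-26431041, plus, exon 11) and HES1 (chr3:194138312-194138341, plus, exon 4) lay in the 3UTR.
NOTCH1: tgctctcgcccgtGGACtccctggagtcac
NOTCH2: attcttgcagcttGGACtgcattttaagcc
DLL1: gcacagcaagcgTGACAccaagtgccagc
JAG1: aaacacccaaactGGACaaacaaacaggac
JAG2: caccaaaaacaaAAACCaaatgtttattt
RBPJ: cgtctttttgctaGGACttaaactgacttg
HES1: ctgggagagaagaGGACttttttgattaag

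Single-exon coding peaks of DE on NOTCH1 (chr9:136497008-136497282, minus, 275 nt, 4 GGAC motifs) and DLL1 (chr6:170283389-170283463, minus, 75 nt, 2 GGAC motifs) are shown whole, because they let the spacing of the motifs inside a called peak be seen. GGAC is in capitals. The NOTCH1 peak encodes part of the intracellular domain.
NOTCH1, DE peak: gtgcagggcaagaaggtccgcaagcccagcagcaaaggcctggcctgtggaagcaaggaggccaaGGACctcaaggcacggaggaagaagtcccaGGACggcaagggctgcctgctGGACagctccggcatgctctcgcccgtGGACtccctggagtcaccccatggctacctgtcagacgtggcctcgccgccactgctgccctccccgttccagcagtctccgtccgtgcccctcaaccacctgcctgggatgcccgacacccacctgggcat
DLL1, DE peak: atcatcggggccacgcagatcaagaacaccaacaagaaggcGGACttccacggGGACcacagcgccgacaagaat

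Before the values, the read counts of the lists were checked against their coordinates, since a list gives for each peak a number, its coordinates, the pooled reads and the authors' log2 enrichment of IP over input. Where counts and coordinates belong together, neighbouring peaks of a gene have similar input reads and neighbouring peaks of different genes do not. In each list this held without a row shift in 1 continuous stretch of at least 3000 peak numbers, which covered between 8.44% of the peaks (A5-KO PP) and 35.7% (hPSC). Shorter stretches without a shift were also found and were not used, and over most of the rest the counts fitted best at shifts of -1 row or more, up to -15 rows, the limit of the search. Inside the stretches, Spearman's rho of input reads between neighbours in peak number was 0.384 to 0.539 for neighbours of the same gene and -0.017 to 0.044 for neighbours of different genes, over the 6 lists. Outside them it was 0.324 to 0.413 and 0.296 to 0.417. There neighbours of the same gene were the more alike in 5 of the 6 lists, but by little, with 0.368 against 0.310 in PP as the widest gap and 0.413 against 0.417 in A5-KO PP. Peaks with identical coordinates in hPSC and DE, which did not enter this search, gave the same split. Their input reads had a rho of 0.865 over 835 peaks inside the stretches of both lists and of 0.260 over 1879 peaks outside them. For WT PP and A5-KO PP the values were 0.881 over 301 peaks and 0.257 over 3296 peaks.

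The counts outside the stretches, and with them the log2 enrichment and p of these peaks, were therefore not taken to belong to the peaks they are listed with, and are not printed here for single members. Of the 195 member peaks, 37 lay inside the stretches: 20 in hPSC (NOTCH1, NOTCH2, MAML1 and HES1), 13 in DE (NOTCH1, NOTCH2 and MAML1), and the 2 HES1 peaks of WT PP and of A5-KO PP. The positions of the peaks are described for all 195, although 26 of the 64 places on which they fell were found in 1 list only. Peak numbers left out of a list, 50, 471, 1286 and 1264 in the stages and 4550 and 2735 in the WT PP and A5-KO PP lists, may mark peaks that were numbered but not listed, which was not tested. Of the member locations absent from a list, 5 of 23 in WT PP, 1 of 25 in A5-KO PP and 1 of 46 in DE lay at such a number. The 5 in WT PP shared 1 number on NOTCH1 and 1 on DLL1, each between listed peaks far apart. They can therefore not all be peaks that were numbered but not listed, and the counts are not compared between lists.

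**Figure D1:**
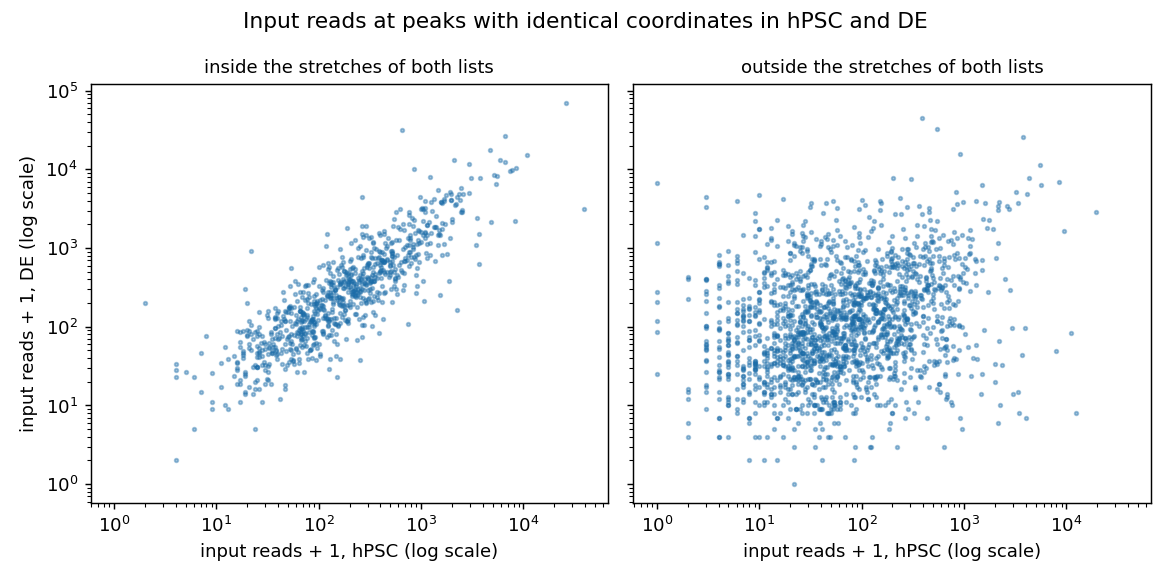
Input reads plus 1 in hPSC (x axis, log scale) and DE (y axis, log scale) at peaks with identical coordinates, each point 1 peak. In the left panel, with 835 peaks whose counts follow the coordinates in both lists, the reads rise together; in the right panel, with 1879 peaks outside the stretches of both lists, the points spread widely.

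Members carried peaks in nearly every population. At least 1 peak was listed for all 10 members in hPSC, PP, WT PP and A5-KO PP, for 9 in hILO and for 8 in DE. The share of all 20046 annotated coding genes with a peak was 60.2%, 52.2%, 62.8% and 69.7% in the first group of lists, 57.7% for hILO and 57.0% for DE, with genes that are not expressed included. The 3 absences were JAG1 and HEY1 in DE and DLL1 in hILO. In total the members had 35, 22, 28 and 20 peaks in hPSC, DE, PP and hILO, and 42 and 48 in the WT PP and A5-KO PP lists. Many listed peaks carry a p above the study's threshold of 1e-05. Below it the members had 19, 10, 24 and 17 peaks in the stages and 24 and 27 in the last 2 lists, which is another order, though most of these p belong to counts outside the stretches. With at least 10 input reads WT PP was left with 38 member peaks and A5-KO PP with 34, and with p below 1e-10 with 15 and 11. On the members, the counts behind these filters follow the coordinates in the 2 lists only for HES1. The order of the genotypes under these filters can therefore not be read as a result about the members. Among all coding genes with a peak the median was 2 peaks in each of the 4 stages and 3 in both lists of the second batch. Over the members, absences included, it was 3, 2, 2.5 and 1.5 in the stages and 4 in each of the last 2 lists.

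Peaks on 21 marker transcripts followed the names of the populations in part. POU5F1 and NANOG, pluripotency factors, had peaks only in hPSC and DE, and the endoderm factor EOMES only in DE. PDX1 and NKX6-1, pancreatic factors, had peaks in PP, hILO, WT PP and A5-KO PP and none in hPSC or DE, and the hormone transcripts INS, GCG and SST only in hILO. Other markers were listed outside the stage they mark. ONECUT1 had 5 and SOX9 had 2 peaks in hPSC, MNX1 had 3 in DE, LIN28A had 1 in each of the 4 stages, DPPA4 had 5 in hPSC and 6 in WT PP, and SOX17 had 3 in DE and also 3 in WT PP. NEUROD1, an endocrine factor, had 1 and 4 peaks in PP and hILO, and 0 and 4 in the WT PP and A5-KO PP lists, and its part in the differences between these lists was not tested. ALKBH5 itself had 4 peaks in WT PP against 5 in A5-KO PP, and the presence of peaks does not check the knockout.

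**Figure D2:**
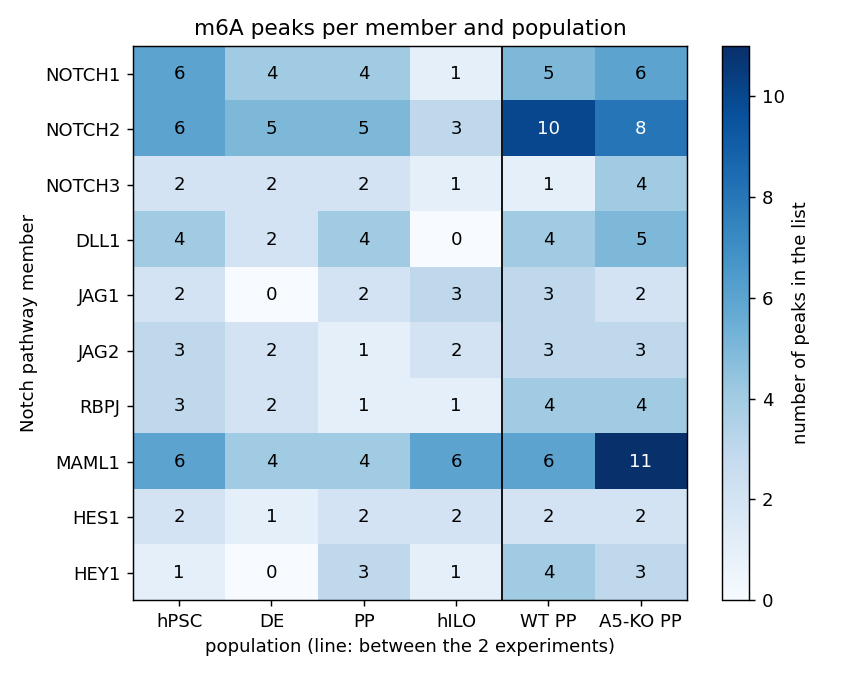
Number of m6A peaks of each Notch member (rows) in the list of each population (columns), with the line between the 4 stages and the knockout experiment. The darkest cell is MAML1 in A5-KO PP with 11 peaks, and the 3 cells at 0 are JAG1 and HEY1 in DE and DLL1 in hILO.

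To follow single methylated stretches through the populations, peaks of a member that shared exonic bases in any lists were joined to locations. The 195 peaks fell on 64 locations, of which 7 were found in all 6 lists, 9 in 5 lists and 26 in 1 list. The 7 were on MAML1, with 3, and on NOTCH1, NOTCH2, JAG2 and HES1, with 1 each. The 16 locations found in 5 or 6 lists had 12 in the last exon and 11 with a midpoint within 500 nt of the end of the coding sequence, whereas of the 26 locations of 1 list 3 lay within that distance. Over all 64 locations, 30 were in the last exon and 17 within that distance. Recurrent locations were also wider, with a median of 475 exonic nt in 5 or 6 lists and 75 nt in 1 list, and the part of width in the recurrence was not tested. Of the 26, 11 were in A5-KO PP, 7 in WT PP, 5 in hPSC, 3 in PP and 0 in DE and hILO.

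**Figure D3:**
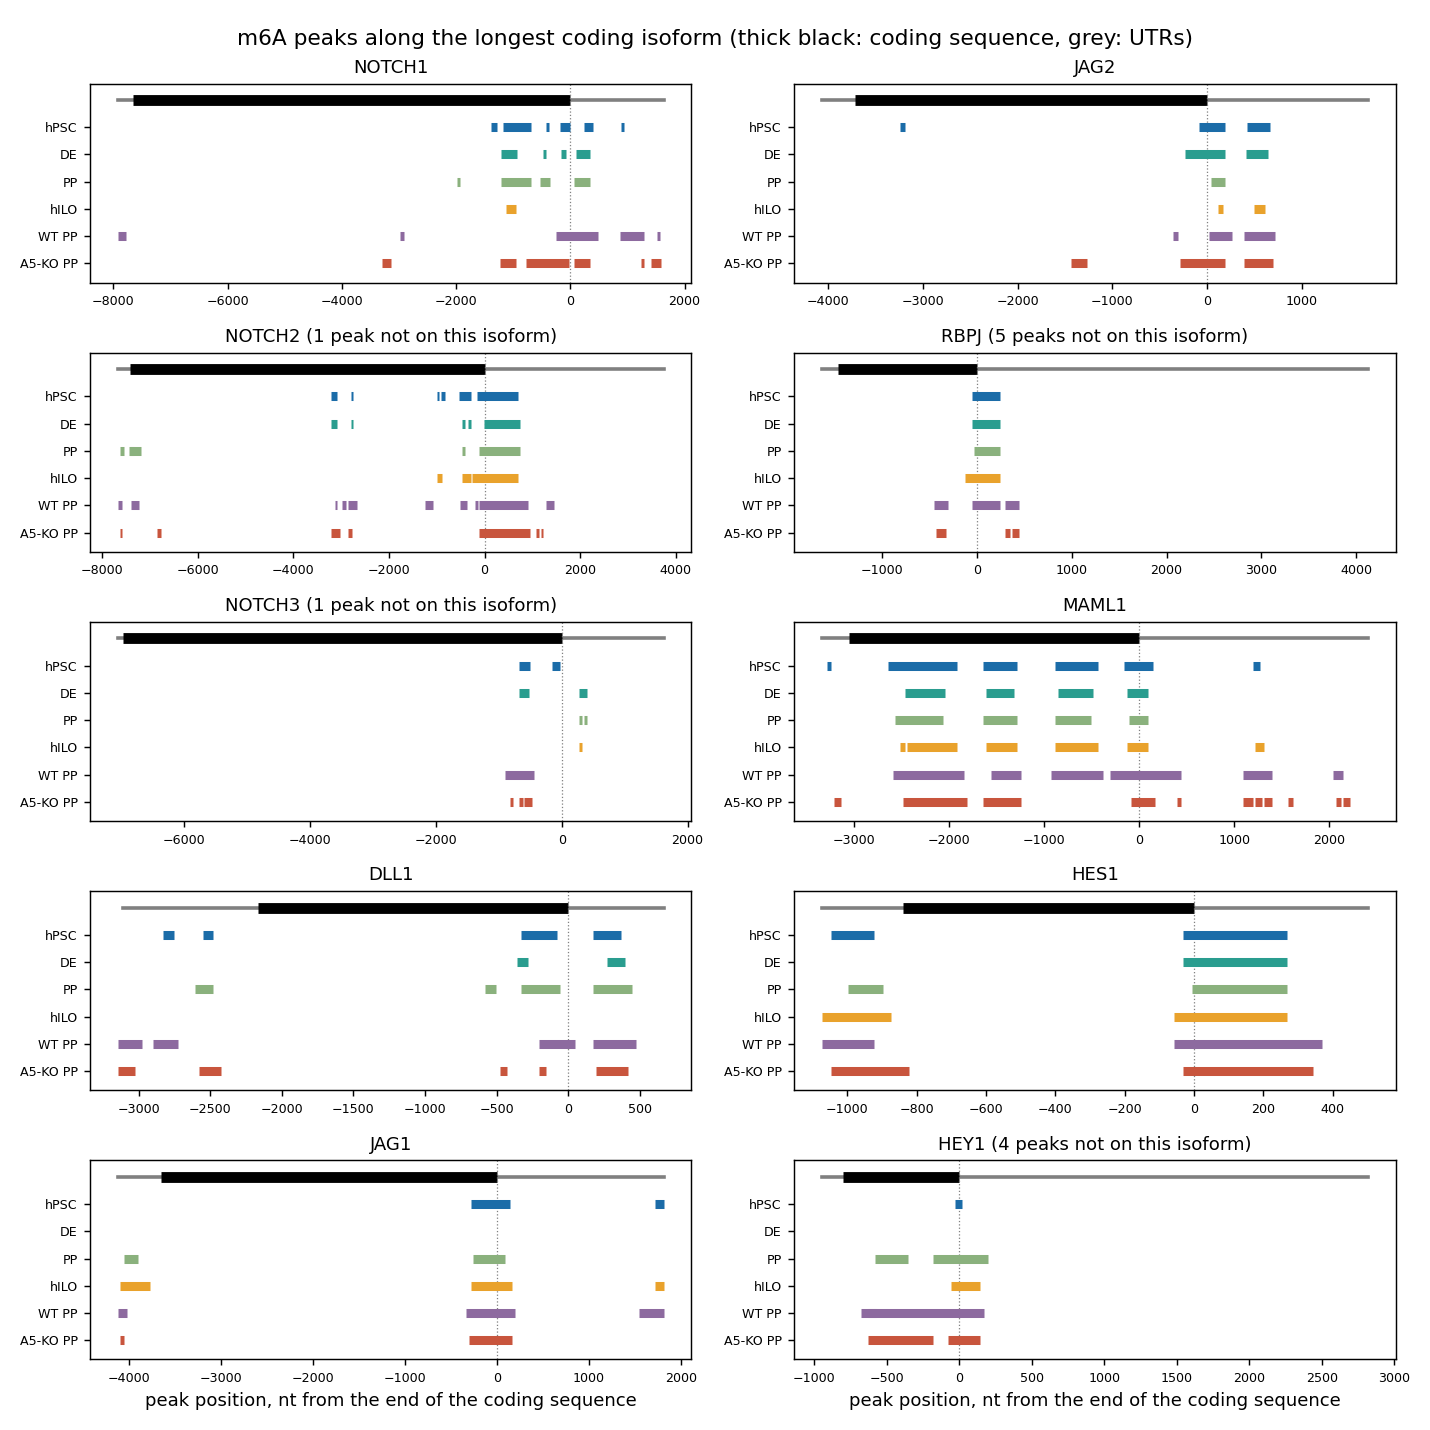
Peaks of the 10 members along their longest coding isoform, in nt from the end of the coding sequence (x axis), with a lane for each population; the thick black line is the coding sequence and the grey line the UTRs. The same stretches recur from lane to lane, as with the 3UTR peak of HES1, and the peaks of A5-KO PP on RBPJ leave out the stretch just after the coding sequence that the other 5 lists share.

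The receptors are large single-pass proteins whose last exon, 3126 nt in NOTCH1, 5142 nt in NOTCH2 and 2677 nt in NOTCH3, encodes much of the intracellular domain and the 3UTR. NOTCH1 (ENSG00000148400, chr9:136494433-136546048, minus strand) had 6, 4, 4 and 1 peaks in hPSC, DE, PP and hILO, and 5 in WT PP against 6 in A5-KO PP. Its peaks covered 1025, 650, 1025 and 175 nt of exons in the stages, and 1425 and 1675 nt in the last 2 lists, so hILO held the smallest part. The 1 location common to all lists spanned chr9:136495583-136497307 in exon 34, where several peaks of some lists met. In hILO what remained was a coding peak of 175 nt (chr9:136497033-136497207) whose midpoint lay 1046 nt before the end of the CDS. Peaks over this coding stretch were listed in hPSC, DE, PP, hILO and A5-KO PP. In WT PP the stretch had no peak. That list left out 1 peak number between NOTCH1 peaks with midpoints 2953 nt before and 117 nt after the end of the CDS. Where in this span the number belongs is not known.

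NOTCH2 (ENSG00000134250, chr1:119911553-120100779, minus strand) was, with MAML1, the member with most peaks, 37 over all lists. It had 6, 5, 5 and 3 peaks in the 4 stages, 10 in WT PP against 8 in A5-KO PP. In each list the widest of them crossed the stop codon into the 3UTR, with 875, 750, 850 and 975 nt in hPSC, DE, PP and hILO, and 1025 and 1075 nt in the WT PP and A5-KO PP lists. A neighbouring coding location 418 nt before the end of the CDS was listed in the 4 stages and WT PP and not in A5-KO PP, where no peak number was left out at that place. Coding peaks in exons 25 and 26 were listed in hPSC, DE, WT PP and A5-KO PP, and not in PP or hILO. Peaks in exons 1 to 4 were listed in PP, WT PP and A5-KO PP only. These first exons have near-identical copies in the NOTCH2NL genes, and reads kept at 1 alignment each could come from either, so these peaks are uncertain. NOTCH2NLA, NOTCH2NLB and NOTCH2NLC were themselves listed with 11, 11 and 14 peaks.

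NOTCH3 (ENSG00000074181, chr19:15159038-15200995, minus strand) had fewer peaks, 2, 2, 2 and 1 in the stages, 1 in WT PP against 4 in A5-KO PP. They fell on 4 locations, 3 of them in exon 33, its last. The location in the CDS, 672 nt before its end, was listed in hPSC, DE, WT PP and A5-KO PP. A location in the 3UTR, 340 nt after the end of the CDS, was listed in DE, PP and hILO. Of the stages, hPSC thus listed coding peaks alone, DE both, and PP and hILO the 3UTR alone. In PP and hILO the 3UTR peaks were single 50 nt peaks, 2 in PP and 1 in hILO. The WT PP list held the coding stretch as 1 peak of 450 nt and the A5-KO PP list as 3 peaks of 50 to 125 nt.

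The ligands differed in the stage at which peaks were missing. DLL1 (ENSG00000198719, chr6:170282206-170306565, minus strand) had 4, 2, 4 and 0 peaks in the stages, 4 in WT PP against 5 in A5-KO PP. Its 2 most recurrent locations were listed in hPSC, DE, PP, WT PP and A5-KO PP, one in the CDS 153 nt before its end and the other in the 3UTR 322 nt after it. The remaining peaks on DLL1 lay mainly in the 5UTR in exon 1, on 3 locations, of which none was listed in DE. JAG1 (ENSG00000101384, chr20:10637684-10673999, minus strand) showed the reverse, with 2, 0, 2 and 3 peaks in the stages, 3 in WT PP against 2 in A5-KO PP. Its central location, chr20:10639309-10639833, covered the stop codon and was listed in each population except DE, with widths of 425, 350 and 450 nt in hPSC, PP and hILO and 525 and 475 nt in WT PP and A5-KO PP. A 5UTR location of JAG1 was listed in PP, hILO, WT PP and A5-KO PP, the pancreatic populations, and a location near the end of the 3UTR in hPSC, hILO and WT PP.

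JAG2 (ENSG00000184916, chr14:105140982-105168824, minus strand) had 3, 2, 1 and 2 peaks in the stages, and 3 in both lists of the second batch. Each of its 14 peaks was also listed with a second gene, ENSG00000257622, so its reads may belong to either. The location around the stop codon, chr14:105142432-105142981, was listed in all 6 populations, but the width of its peaks ranged from 50 nt in hILO to 475 nt in A5-KO PP. The peaks of hPSC, DE and A5-KO PP covered the stop codon. Those of PP, hILO and WT PP lay in the 3UTR after it. A 3UTR location 554 nt after the end of the CDS was listed in each population except PP.

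Of the nuclear complex, the co-activator MAML1 (ENSG00000161021, chr5:179732822-179777283, plus strand) had 6, 4, 4 and 6 peaks in the stages, 6 in WT PP against 11 in A5-KO PP. Its 4 locations that recurred in all 4 stages lay in the CDS in exon 2, in the CDS across exon 2 and its neighbour, in the CDS in exon 5, and over the stop codon. Each DE peak of MAML1 (4 of 4) and each PP peak (4 of 4) was shared with the stage before, as were 5 of 6 hILO peaks. The coding location in exon 5, 658 nt before the end of the CDS, was 450, 375, 375 and 450 nt wide in the stages and 550 nt in WT PP. In A5-KO PP no peak was listed there, and no peak number was left out at that place. Of the 11 A5-KO PP peaks on MAML1, 8 were 50 to 100 nt wide, and 7 had their midpoint more than 400 nt after the end of the CDS.

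RBPJ, the DNA-binding protein of the complex (ENSG00000168214, chr4:26163455-26435131, plus strand), had 3, 2, 1 and 1 peaks in the stages and 4 in both lists of the second batch. Its main location, chr4:26430879-26431253, crossed the end of the CDS into the 3UTR and was 300, 300, 275 and 375 nt wide in the stages and 300 nt in WT PP. In PP and hILO it was the only RBPJ peak. In A5-KO PP this location had no peak, while its neighbours on either side, in exon 10 and further into the 3UTR, were listed in A5-KO PP as in WT PP. However, 1 peak number was left out of the A5-KO PP list just between these neighbours. Whether that number stood for a peak at this place was not tested, and a loss in the knockout is not taken from the list. The other RBPJ peaks of hPSC and DE lay upstream, in exons that are not part of the longest coding isoform.

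Of the target genes, the repressor HES1 (ENSG00000114315, chr3:194136148-194138732, plus strand) had 2 peaks in each population except DE, which had 1. The 3UTR location, chr3:194138174-194138598, was listed in all 6, with 300, 300, 275 and 325 nt in the stages and 425 and 375 nt in WT PP and A5-KO PP. Its shared part holds the GGAC site printed above, 96 nt after the end of the CDS. The second location, chr3:194136148-194136397 in the 5UTR, was listed in each population except DE.

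The counts of HES1 followed the coordinates in hPSC and in both lists of the knockout experiment. In hPSC the 3UTR peak had 69 input and 1127 IP reads and was enriched by 2.56 ± 0.18 on the log2 scale. Here and below, ± gives the error from counting alone. The 5UTR peak had 11 input and 116 IP reads and 1.70 ± 0.45. In WT PP the 3UTR peak had 1738 input and 8314 IP reads and a log2 enrichment of 5.00 ± 0.038, and in A5-KO PP 1173 and 5195 reads and 5.05 ± 0.047. The difference, A5-KO PP minus WT PP, was 0.045 ± 0.06, below its counting error. At the 5UTR peak WT PP had 56 input and 85 IP reads and 2.13 ± 0.25, and A5-KO PP had 82 and 98 reads and 2.72 ± 0.22, a difference of 0.60 ± 0.33. In each of the 3 lists the 3UTR peak of HES1 was thus the more enriched. At both peaks the printed IP reads over input reads gave a lower ratio in A5-KO PP than in WT PP, against the deposited enrichment. The direction of the difference between genotypes therefore depends on the measure. Levels of hPSC and of the second batch were scaled separately and come from different antibodies and kits, so they are not compared.

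HEY1 (ENSG00000164683, chr8:79762371-79767857, minus strand) is a repressor of the same wider family. It had 1, 0, 3 and 1 peaks in the stages, 4 in WT PP against 3 in A5-KO PP. The location around its stop codon was listed in each population except DE. It was 50 nt wide in hPSC and 200 nt in hILO, was covered by peaks of 225 and 375 nt in PP and of 225 and 450 nt in A5-KO PP, and by 1 peak of 800 nt in WT PP. A location near the start of the gene was listed in PP and WT PP, and another in WT PP and A5-KO PP. Neither is part of its longest coding isoform. With JAG1, HEY1 was a member without a peak in DE only.

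**Figure D4:**
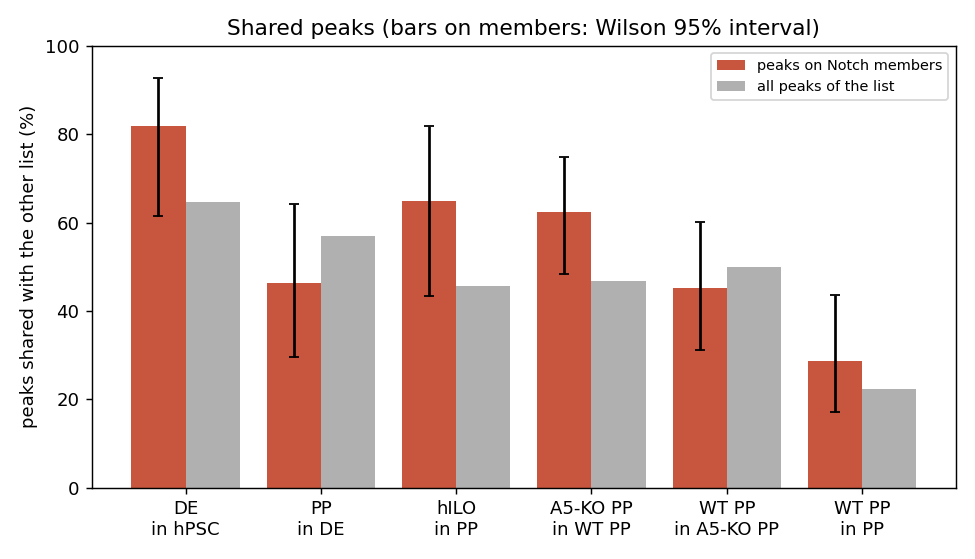
Percent of the peaks of a list that were shared with another list (more than 50% of the exonic length covered), for the peaks on Notch members (red, with Wilson 95% intervals) and for all peaks of the list (grey). The DE list shared 81.8% of its member peaks with hPSC and the PP list 46.4% with DE.

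To ask how many member peaks were passed on between stages, a peak was called inherited when peaks of the previous stage covered over 50% of its exonic bases. In DE 18 of 22 member peaks were inherited from hPSC (81.8%, Wilson 95% interval 61.5% to 92.7%), beside 64.7% of all DE peaks. In PP 13 of 28 were inherited from DE (46.4%, 29.5% to 64.2%), beside 57.0% of all. In hILO 13 of 20 were inherited from PP (65.0%, 43.3% to 81.9%), beside 45.6% of all. The 3 intervals include the share of all peaks. The intervals cover counting error only, and peaks of a gene are not independent. The PP peaks that were not inherited included 3 on HEY1, 2 on JAG1 and 4 on DLL1. DE had no peak on HEY1 or JAG1. On DLL1 it had 2 peaks, both covered over 50% by wider PP peaks. Part of the 4 PP peaks on DLL1 thus overlapped DE peaks without reaching the threshold.

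Over the 4 stages, 40 of the 64 locations were listed at least once. All 4 stages shared 10 of them, 8 were listed in hPSC alone, 6 in PP alone, 1 in DE alone and 0 in hILO alone. Receptor peaks numbered 14, 11, 11 and 5 in hPSC, DE, PP and hILO, and ligand peaks 9, 4, 7 and 5. The nuclear complex had 9, 6, 5 and 7 and the targets 3, 1, 5 and 3. hILO thus had the fewest receptor peaks of the 4 stages, and DE the fewest ligand and target peaks. The number of all listed peaks was 36659, 32680, 29083 and 31519, and gave another order.

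The comparison of WT PP with A5-KO PP asked how the absence of the demethylase was reflected on Notch transcripts. The 2 lists held 54 of the 64 locations, 26 of them in both, 15 in WT PP without A5-KO PP and 13 in A5-KO PP without WT PP. Of the A5-KO PP peaks on members, 30 of 48 were shared with WT PP (62.5%, 48.4% to 74.8%), beside 46.8% of all A5-KO PP peaks, which lies below the interval. Narrow A5-KO PP peaks within a wider WT PP peak, as 3 each on MAML1 and NOTCH3, count singly here, and their part in the share was not tested. Of the WT PP peaks, 19 of 42 were shared with A5-KO PP (45.2%, 31.2% to 60.1%), beside 50.0% of all. Only 12 of the 42 were shared with PP of the first batch (28.6%, 17.2% to 43.6%), beside 22.4% of all WT PP peaks. Antibody, RNA fraction and kit differed between these lists and cannot be told apart. In both lists of the second batch there were peaks without any input read, 11.5% of all WT PP peaks and 24.6% of all A5-KO PP peaks, against at most 0.183% in the stages.

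Taken as deposited, the log2 enrichment differed by at least 1 between A5-KO PP and WT PP at 19 of 30 member pairs, 14 higher and 5 lower in A5-KO PP, with 66.9% of all 25833 shared pairs past that difference, 38.0% higher and 28.9% lower. Between DE and hPSC 1 of 18 member pairs passed it (11.4% of all pairs), between PP and DE 2 of 13 (15.6%), and between hILO and PP 1 of 13 (17.3%). Most of these pairs rest on counts that do not follow the coordinates, and the numbers say little about the members. Among pairs whose counts follow the coordinates in both lists, the background fell to 37.2% of 2473 pairs for A5-KO PP against WT PP, and to 2.67% of 7334 pairs for DE against hPSC. There, 0 of 2 and 0 of 11 member pairs passed a difference of 1.

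The 11 pairs of DE against hPSC belonged to MAML1, NOTCH1 and NOTCH2. At the stop codon peak of NOTCH2 the reads were 379 input and 4703 IP in hPSC and 269 and 814 in DE, and the log2 enrichment was 2.16 and 2.06. At the coding peak of NOTCH1 that is printed above, hPSC had 227 input and 2931 IP reads and DE had 142 and 644, with a log2 enrichment of 1.94 and 1.78. The second NOTCH1 pair, at the end of the CDS, had 1.20 and 1.25. The levels of each pair thus lay close together.

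On MAML1 the coding peak of exon 2 had 608 input and 6644 IP reads in hPSC and 184 and 658 in DE, and a log2 enrichment of 1.91 and 2.12. The other 3 MAML1 pairs had 2.06 and 2.10, 1.79 and 1.70, and 2.07 and 1.84. On NOTCH2, the exon 25 peak had 1.10 in hPSC and 1.43 in DE with 22 input reads in DE, and the exon 26 peak 1.45 and 1.90 with 28 input reads in DE. The remaining 2 NOTCH2 pairs shared 1 hPSC peak of 1.504, against DE peaks of 1.32 and 1.23. The differences, DE minus hPSC, ranged from -0.27 to 0.45 with a median of -0.09, beside a median of -0.12 over all 7334 pairs, and 0 of the 11 exceeded 2 counting errors.

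**Figure D5:**
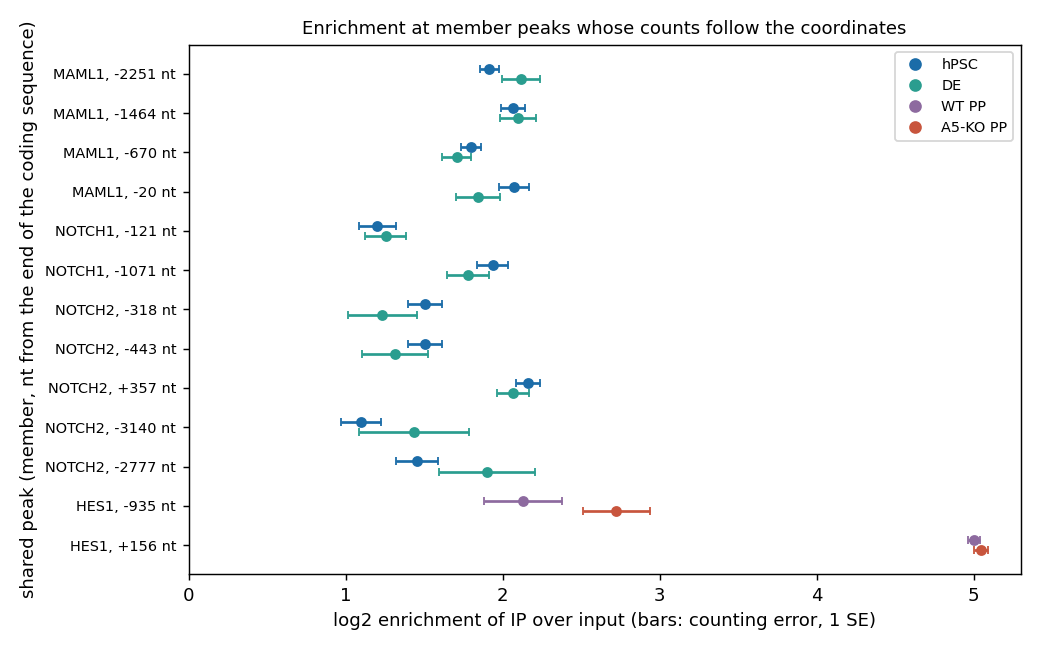
Log2 enrichment of IP over input (x axis, bars are 1 counting error) at the 13 shared member peaks whose counts follow the coordinates in both lists, in hPSC and DE (11 pairs) and in WT PP and A5-KO PP (2 pairs on HES1). The points of each pair differ by less than 2 counting errors of their difference, and the 3UTR peak of HES1 is at 5.00 and 5.05.

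Along the transcript, 19 of 33 placed member peaks lay in the CDS in hPSC (57.6%, 40.8% to 72.8%), 14 of 21 in DE (66.7%, 45.4% to 82.8%), 14 of 27 in PP (51.9%, 34.0% to 69.3%) and 9 of 20 in hILO (45.0%, 25.8% to 65.8%). All peaks gave 52.5%, 50.6%, 55.8% and 53.7%. In WT PP 18 of 39 lay in the CDS (46.2%, 31.6% to 61.4%) beside 48.8% of all peaks. In A5-KO PP it was 18 of 44 (40.9%, 27.7% to 55.6%) beside 56.2% of all peaks, the only list in which the interval did not include the share of all peaks. The member share was 52.3% (37.9% to 66.2%) when any overlap with the CDS counted, and 41.7% (24.5% to 61.2%) when peaks needed 50 input reads. The share of all peaks was not computed under these settings, so they cannot say whether the difference holds. The read minimum also acts on counts that, on the members in this list, follow the coordinates only for HES1. The 3UTR held 20 of the 44 placed A5-KO PP peaks on members, and 7 of the 20 were on MAML1 beyond 400 nt after the CDS. The last exon held 69.7%, 76.2%, 59.3% and 75.0% of the placed member peaks of hPSC, DE, PP and hILO, and 59.0% and 63.6% of those of the WT PP and A5-KO PP lists, against 51.4% to 60.9% of all peaks of genes with several exons.

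Over all members, peak sequences were richer in the m6A motif than the rest of the exons of these genes. DRACH occurred 21.9, 23.0, 23.5 and 24.5 times per kb in member peaks of hPSC, DE, PP and hILO, and 19.8 and 20.8 times in WT PP and A5-KO PP. The ratio to the remaining exonic sequence of these genes was 1.34, 1.45, 1.44, 1.496, 1.21 and 1.27 in this order. GGAC gave ratios of 1.99, 1.98, 1.94, 1.72, 1.46 and 1.84. Over all genes, DRACH gave 1.20 to 1.26 and GGAC 1.37 to 1.63. On the opposite strand, which does not carry the transcript, the member ratios were 0.889 to 1.02 for DRACH and 0.786 to 1.18 for GGAC. The members differed among themselves: in hPSC the DRACH density in peaks was 26.7 per kb on MAML1 against 13.9 outside peaks, and 40.0 on JAG1 against 18.8, whereas NOTCH2 had 16.6 in peaks and 20.4 outside, NOTCH1 10.7 and 12.7, RBPJ 16.5 and 18.3 and NOTCH3 13.3 and 13.9.

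Other genes of the pathway were read from a list of 69. In hPSC, DE, PP and hILO 53, 49, 51 and 49 of them carried a peak, and in WT PP and A5-KO PP 56 and 53; 35 did so in all 6 lists, beside 37.7% of all coding genes. No difference between the groups of the list was tested. Of the co-repressors, which hold RBPJ targets silent without a Notch signal, 11 of 12 had peaks in all 6 lists, with 395 of the 1094 peaks. The proteases and gamma-secretase subunits that cut the receptor had 8 of 9 in all lists. Of the other ligands 0 of 5 and of the other target genes 1 of 8 had peaks in all lists. SPEN, a co-repressor that binds RBPJ, had the most peaks, 96, followed by KDM5A, a histone demethylase, with 56 and MAML3, a relative of MAML1, with 54. No peak was listed in any population for DLL3, HES5, RBPJL, LFNG, MFNG and DVL2.

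For the members without a peak in some list, genes of the pathway with the same pattern over the 6 lists were looked up. MAML2, a second relative of MAML1, was the 1 gene among 69 that, like JAG1 and HEY1, had a peak in each list except DE. NOTCH4 and HEYL were the 2 that, like DLL1, had a peak in each list except hILO. By the rule for named genes, pathway genes with the largest rises and falls in the knockout were sought among the 61 shared pairs that had 50 or more input reads in each genotype. The 4 extreme pairs, on EP300, MAML3 and NCOR1, had counts that do not follow the coordinates and their values are not given. In 15 of the 61 pairs the counts follow them. These ranged from -2.10 on AAK1, a kinase of receptor endocytosis, to 0.77 on DTX4, a ubiquitin ligase of the Deltex family. The other 2 AAK1 pairs had -0.31 and -0.0056, the latter from the same WT PP peak as the lowest value, which overlaps a pair of A5-KO PP peaks. On FBXW7, the ubiquitin ligase that clears the intracellular domain of NOTCH, 3 pairs had -0.99, -0.71 and 0.53.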

How the data were processed

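Per the study's methods, fastp trimmed the reads, HISAT2 placed each read at 1 position of GRCh38, and exomePeak2 (version not given in the sources used here) called peaks from a population's IP and input libraries jointly. For each peak they deposited read counts of input and IP pooled over libraries, a log2 enrichment of IP over input, and a p-value. The sources do not say if pooling summed or averaged the libraries. The thresholds in the methods are an IP/input ratio of 1.5 and p below 1e-05.

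From the deposited lists, peaks were reduced to the exons of their genes (GENCODE 44) and their midpoints placed on the longest coding isoform, with the stop codon counted to the 3UTR. Coordinates are 1-based. The stretches in which counts follow coordinates were found by a path over row shifts of neighbouring peaks, kept from 3000 peak numbers on, and tested on simulated data with known shifts. Counting errors took 0.5 added to each count. All 10 members were named, and other pathway genes were named by number of peaks, by absence from every list or by change of enrichment. The members and gene lists were chosen with earlier results of these data known. Alternatives covered thresholds, overlap and read minimums. Analyses used Python 3.11.15 with pandas 2.3.3, scipy 1.17.1 and pysam 0.24.0.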

Additional observations from a re-analysis of the deposited data

How the results depend on the processing

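No paired analysis was possible because each population had 1 pooled list and no value per library, and for the same reason no replicate could be left out. Of the alternatives, the share of member peaks in the CDS stayed within its interval in 12 of 12, the inherited share in 8 of 9 and the number of member peaks within 1.5 times in 29 of 42. The median difference at member pairs lay within the interval of the reported median in 14 of 14, but these intervals are wide. Its sign turned for DE against hPSC (-0.11 to 0.09) and hILO against PP (0.11 to -0.19) with the count ratio, and for PP against DE (0.08 to -0.09) with 50 or more input reads. For A5-KO PP against WT PP it was 0.61 and ranged from 0.32 to 1.24. The inherited share of DE was 54.5% with a reciprocal overlap above 50%. Thresholds on ratio, p or input reads act on counts that mostly do not follow the coordinates, so their effect on single members cannot be read. With an IP/input ratio of at least 3, the members had 18, 11, 16 and 8 peaks in hPSC, DE, PP and hILO. With p below 1e-05 they had 19, 10, 24 and 27 in hPSC, DE, WT PP and A5-KO PP, and with p below 1e-10 they had 10, 7, 15, 15 and 11 in hPSC, DE, PP, WT PP and A5-KO PP.

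Member pairs past a log2 difference of 1 numbered, where each list had 50 or more input reads, 0 for DE against hPSC, 0 for PP against DE, 0 for hILO against PP and 6 for A5-KO PP against WT PP. From the log2 ratio of counts with a pseudocount of 1 there were 0 for DE against hPSC and 2 for hILO against PP, and with any overlap 2 for hILO against PP. Among peaks whose counts follow the coordinates, an alternative chosen after seeing the data, there were 0 for DE against hPSC and 0 for A5-KO PP against WT PP. On the opposite strand the density ratio of DRACH was 0.933, 0.968, 0.889, 1.02, 0.912 and 0.893 in hPSC, DE, PP, hILO, WT PP and A5-KO PP, and that of GGAC in this order 1.18, 0.937, 0.821, 0.786, 1.09 and 0.955. The cause of these changes was not tested.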
